A study of Mus musculus with 2 samples.

Results

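The Mir23, Mir27 and Mir24 genes form a pair of duplicated clusters in the mouse genome, with Mir23b, Mir27b and Mir24-1 on chromosome 13 and Mir23a, Mir27a and Mir24-2 on chromosome 8. Members were taken by matching the Ensembl identifiers of the deposited tables, without version numbers, to these 6 symbols in GENCODE M21. Of the 6 genes, 5 have a row among the 1973 miRNA genes of the tables, while Mir24-1 was not analysed here. The data are 1 group of 2 small-RNA libraries from neural tube of healthy B6NCrl embryos at embryonic day 15.5, with males and females mixed. Library 1 was made from a pool of 78 embryos and library 2 from a pool of 62 embryos, and the labels call them biological replicates. The samples used here include no treatment, mutation or control tissue, so the comparisons open to them are between the clusters, between their members and between the pools. Because the tissue was taken whole, fewer cells of a type and less RNA per cell cannot be told apart.

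A miRNA gene is transcribed into a hairpin, which is cut to a short duplex of a 5p and a 3p arm, and the arm that is kept guides repression of messenger RNAs through its seed, bases 2 to 8 from the 5′ end. In these clusters a single primary transcript is known to carry a Mir23, a Mir27 and a Mir24 hairpin, and the 3p arm is the one generally found as the guide. The clusters are known from blood vessels, where they affect endothelial sprouting, and from blood and immune cells. The miR-23 guide is known to repress glutaminase in human cells and lamin B1 in mouse oligodendrocytes, the miR-27 guide to repress Pparg and Runx1, and the miR-24 guide to restrain cell division genes and erythroid maturation.

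The mature sequences are shown because the clusters are near copies of each other, and the way they differ limits which reads can be given to 1 cluster. RefSeq on GRCm38.p6 holds hairpins for all 6 genes and 11 mature entries. Seeds are in capitals and sequences run 5′ to 3′. A mature entry for miR-23b-3p, the guide of Mir23b, is not used here.
miR-23a-3p: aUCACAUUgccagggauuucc
The miR-27 guides share a seed with each other.
miR-27b-3p: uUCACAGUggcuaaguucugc
miR-27a-3p: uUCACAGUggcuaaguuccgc
The miR-24 guide is the same molecule from either gene.
miR-24-3p: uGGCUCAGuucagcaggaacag
The 5p arms of Mir24-1 and Mir24-2 also share a seed and differ nearer the 3′ end.
miR-24-1-5p: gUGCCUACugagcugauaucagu
miR-24-2-5p: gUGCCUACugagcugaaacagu
The 5p arms of the Mir23 genes and of the Mir27 genes have different seeds within each pair.
miR-23b-5p: gGGUUCCUggcaugcugauuu
miR-23a-5p: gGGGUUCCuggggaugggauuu
miR-27b-5p: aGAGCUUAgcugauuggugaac
miR-27a-5p: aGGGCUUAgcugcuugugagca

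Compared with the hairpin of the other cluster, miR-27b-3p differed at 1 of its 21 bases, U19C, counted from the 5′ end of the mature miRNA with the base of miR-27b-3p first. The Mir23a and Mir23b hairpins are shown with the 18 bases that open miR-23a-3p and occur in both hairpins in capitals.
Mir23b: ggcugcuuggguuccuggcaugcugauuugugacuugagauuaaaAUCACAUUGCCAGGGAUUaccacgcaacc
Mir23a: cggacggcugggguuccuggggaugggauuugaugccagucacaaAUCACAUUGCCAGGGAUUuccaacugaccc
Relative to the Mir23b hairpin, miR-23a-3p had the single difference U19A, with the base of miR-23a-3p first. A read of the opening 18 bases of a miR-23 or miR-27 guide therefore matches both clusters, whereas a read that covers base 19 differs between them. All 22 bases of miR-24-3p occur in both Mir24 hairpins, shown here with the mature sequence in capitals.
Mir24-1: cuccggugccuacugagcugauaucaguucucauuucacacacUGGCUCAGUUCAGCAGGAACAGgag
Mir24-2: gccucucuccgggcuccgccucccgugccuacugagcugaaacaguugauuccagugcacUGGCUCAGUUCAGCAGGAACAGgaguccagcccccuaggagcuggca
Reads that align to several places were assigned to no gene in the deposited tables and made up 29.4% of the 7925935 reads in library 1, against 29.7% of the 11738914 reads in library 2. The count of Mir24-2 can therefore not hold reads that lie wholly within miR-24-3p, provided that both places were seen by the aligner. The tables do not separate the 5p from the 3p arm.

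On the mm10 build (GRCm38), RefSeq places Mir23b on the plus strand of chromosome 13 at 63300484 to 63300557, Mir27b at 63300712 to 63300784 and Mir24-1 at 63301208 to 63301275. These lie within 2010111I01Rik, the aminopeptidase O gene, on its strand, and opposite the Fanconi anaemia gene Fancc. In GENCODE M21 the Mir23b hairpin overlapped no exon of 2010111I01Rik, while the whole of the Mir27b and Mir24-1 hairpins lay in an exon of at least 1 of its annotated transcripts. Mir23a lies on the plus strand of chromosome 8 at 84208518 to 84208592, Mir27a at 84208672 to 84208758 and Mir24-2 at 84208815 to 84208921. The Mir23a cluster was inside no protein-coding gene, and only the last 2 bases of the Mir24-2 hairpin overlapped an exon of the long non-coding gene Gm26532. The Mir23b cluster is the wider one, with 154 bases between Mir23b and Mir27b and 423 bases between Mir27b and Mir24-1, against 79 bases between Mir23a and Mir27a and 56 bases between Mir27a and Mir24-2. The identifiers of the Mir23b and Mir27b genes carry an older version number in the tables than in M21, so their boundaries at the time of counting may have differed.

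**Figure D1:**
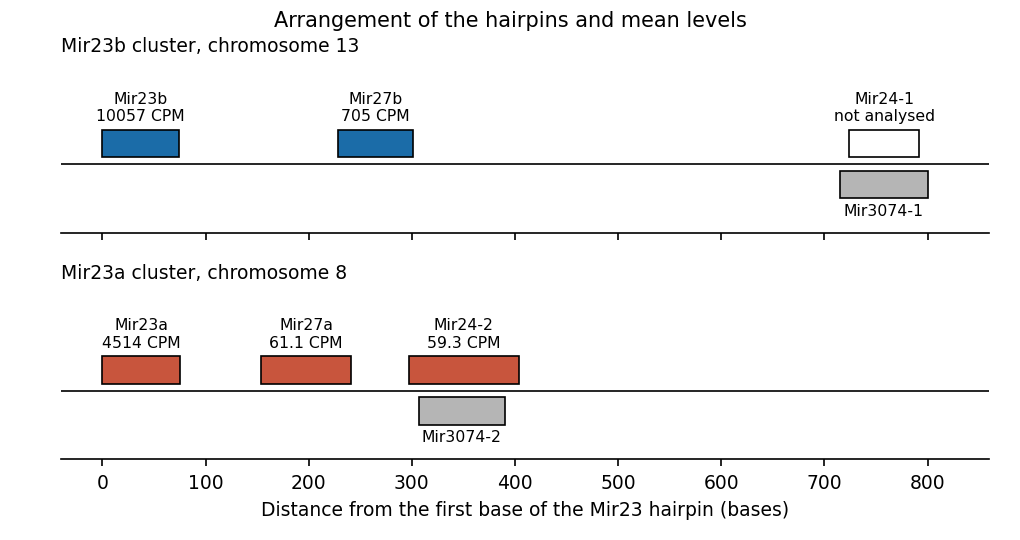
Position of each hairpin as distance in bases from the start of the Mir23 hairpin, drawn to scale from GENCODE M21, with genes on the plus strand above the line and Mir3074 genes on the minus strand below it. Labels give the mean level over both libraries in CPM (counts scaled to the library total), from 10057 CPM for Mir23b to 59.3 CPM for Mir24-2; Mir24-1 (white) was not analysed.

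By counted reads, the Mir23 genes dominated both clusters, and the chromosome 13 copy was the higher one for Mir23 and for Mir27. Reads of the miR-24 guide may be missing from the counts, so its part in either cluster is not known. Levels are in CPM, a gene's sense-strand counts scaled to the 4228685 sense counts of library 1 or the 6039889 sense counts of library 2. The mature miRNAs are 21 to 23 bases long, and levels were not scaled to length. How efficiently each sequence was captured was not measured.

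Mir23b had 11197 CPM in library 1 (47350 counts), against 8916 CPM in library 2 (53854 counts), a mean of 10057 ± 1613 CPM (SD, n = 2) and rank 16 of the 1973 genes. Mir27b had 786 CPM in library 1 (3325 counts), against 625 CPM in library 2 (3773 counts), a mean of 705 ± 114 CPM (SD, n = 2) and rank 101. Within the chromosome 13 cluster, both members thus had their higher level in library 1.

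Mir23a had 5292 CPM in library 1 (22377 counts), against 3737 CPM in library 2 (22572 counts), a mean of 4514 ± 1099 CPM (SD, n = 2) and rank 32. Mir27a had 73.3 CPM in library 1 (310 counts), against 48.8 CPM in library 2 (295 counts), a mean of 61.1 ± 17.3 CPM (SD, n = 2) and rank 228. For Mir24-2, the only Mir24 gene with a row, the level was 68.1 CPM in library 1 (288 counts), against 50.5 CPM in library 2 (305 counts), a mean of 59.3 ± 12.5 CPM (SD, n = 2) and rank 229. Library 1 was again the higher one for each of these 3 genes. All 5 members lay far above the level that 3 counts would give, 0.709 CPM in library 1, against 0.497 CPM in library 2, a limit that covers counting error only.

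**Figure D2:**
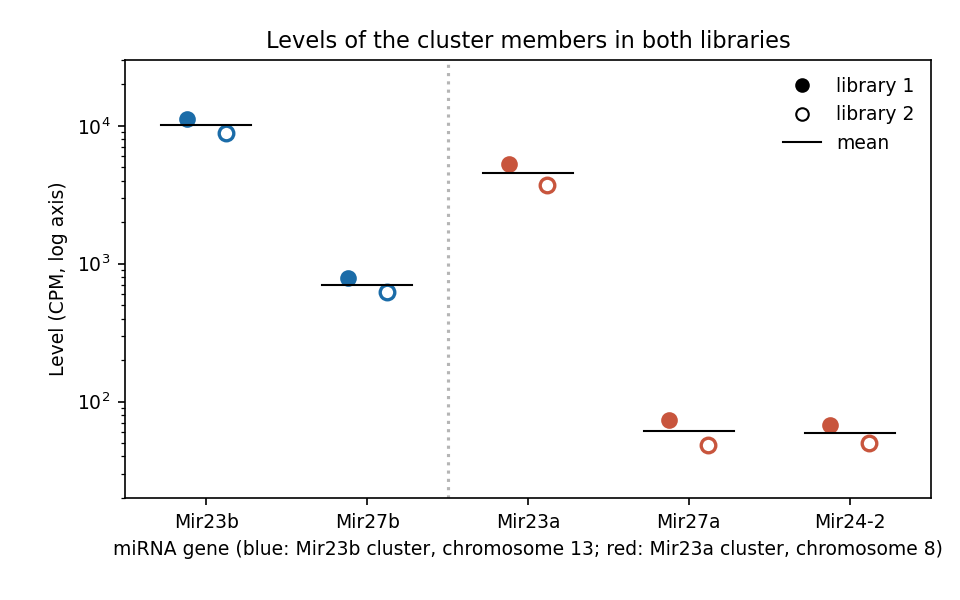
Level of each member in CPM on a log axis, with library 1 as filled and library 2 as open circles and the mean as a line. The Mir23 genes lie at 3737 CPM or higher in both libraries, Mir27b between 625 and 786 CPM, and Mir27a and Mir24-2 between 48.8 and 73.3 CPM.

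In order of mean level by counted reads, the members with a row were Mir23b, Mir23a, Mir27b, Mir27a and Mir24-2. Both libraries of Mir23b lay above both of Mir23a, both of Mir23a above both of Mir27b, and both of Mir27b above both of Mir27a. Mir27a and Mir24-2 overlapped, and the count of Mir27a was 1.08 times that of Mir24-2 in library 1 (95% exact counting interval 0.914 to 1.27) and 0.967 times in library 2 (0.821 to 1.14). Their order is therefore not resolved. With 2 libraries a two-sided exact permutation test of levels cannot go below p = 0.333, so no order of levels was tested.

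As sums, the Mir23b cluster (2 members with a row) took 1.20% of the sense counts of library 1 (95% Wilson interval 1.19 to 1.21) and 0.954% of library 2 (0.946 to 0.962). The Mir23a cluster (3 members) took 0.543% of library 1 (0.536 to 0.550) and 0.384% of library 2 (0.379 to 0.389). Together the clusters held 1.54% ± 0.286 of the counts (SD, n = 2). The Mir23 genes held 1.46% ± 0.271 and the Mir27 genes 0.0767% ± 0.0132 (SD, n = 2 each), while Mir24-2 held 0.00593% ± 0.00125 (SD, n = 2). The last share is no measure of the miR-24 guide. Mir24-1 is missing from it, and reads wholly within miR-24-3p are too, provided that the aligner saw both places.

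Within each cluster the ratio of the Mir23 to the Mir27 gene agreed between the pools within counting error, but it differed between the clusters. Mir23b had 14.2 times the counts of Mir27b in library 1 (95% exact interval 13.7 to 14.8) and 14.3 times in library 2 (13.8 to 14.8). Mir23a had 72.2 times the counts of Mir27a in library 1 (64.5 to 81.0) and 76.5 times in library 2 (68.2 to 86.1). The intervals of a ratio overlapped between the libraries, and those of the 2 clusters did not overlap each other in either library. Mir23a also had 77.7 times the counts of Mir24-2 in library 1 (69.2 to 87.6) and 74.0 times in library 2 (66.1 to 83.1). Mir23b made up 93.4% ± 0.0100 of its cluster's counts and Mir23a made up 97.4% ± 0.00954 of its own (SD, n = 2 each). Because Mir24-1 is missing from the Mir23b cluster sum, and reads of miR-24-3p may be missing from both clusters, these shares are of the counted reads only.

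Set member against member, the chromosome 13 copy exceeded the chromosome 8 copy by more for Mir27 than for Mir23. The ratio of Mir23b to Mir23a was 2.12 in library 1 (95% exact interval 2.08 to 2.15) and 2.39 in library 2 (2.35 to 2.42), a mean log2 ratio of 1.17 ± 0.122 (SD, n = 2). The ratio of Mir27b to Mir27a was 10.7 in library 1 (9.54 to 12.1) and 12.8 in library 2 (11.4 to 14.4), a mean log2 ratio of 3.55 ± 0.180 (SD, n = 2). Both libraries of the Mir27 pair lay above both of the Mir23 pair. The counts of Mir24-1 were not analysed, so the third pair has no ratio. For the cluster sums the ratio was 2.21 in library 1 (2.17 to 2.24) and 2.49 in library 2 (2.45 to 2.53), a mean log2 ratio of 1.23 ± 0.122 (SD, n = 2). The Mir23 and the cluster ratios were lower in library 1 than in library 2 by more than counting error, as their intervals did not overlap, while those of the Mir27 pair did. A pair's ratio is taken within a library, so scaling between libraries does not enter it.

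Other duplicated miRNA clusters were set beside these as sums. Reads that align to several places are missing from their rows too, and which of their copies share a whole mature sequence is not shown here. Where copies share a guide whole, as the Mir24 genes do, its reads would not be counted. The ratios below are therefore of the counted reads only and need not follow the levels of the guides. The ratio of Mir181a-2 with Mir181b-2 to Mir181a-1 with Mir181b-1 was 0.366 in library 1 and 0.342 in library 2. That of Mir29c with Mir29b-2 to Mir29a with Mir29b-1 was 0.526 in library 1 and 0.776 in library 2. The ratio of Mir15b with Mir16-2 to Mir15a with Mir16-1 was 0.210 in library 1 and 0.192 in library 2. In all 3 the intervals of the libraries did not overlap, as for the Mir23b and Mir23a clusters, so such a gap between the pools was not particular to the Mir23 clusters. The log2 ratio of library 1 minus that of library 2 was -0.17 for the Mir23b to Mir23a clusters, against 0.10 for the Mir181, -0.56 for the Mir29 and 0.13 for the Mir15 with Mir16 clusters. Member by member, both measured pairs of the Mir23 clusters had their higher level on chromosome 13. The Mir15 with Mir16 pairs also shared a direction, with Mir15b to Mir15a at 0.223 in library 1 and 0.191 in library 2 and Mir16-2 to Mir16-1 at 0.187 in library 1 and 0.194 in library 2. The Mir181 pairs differed in direction, with Mir181a-2 to Mir181a-1 at 0.0532 in library 1 and 0.0441 in library 2 and Mir181b-2 to Mir181b-1 at 87.9 in library 1 and 99.7 in library 2. Mir29c to Mir29a stood at 0.514 in library 1 and 0.766 in library 2, while Mir29b-2 to Mir29b-1, with 8 to 15 counts a gene, stood at 1.5 in library 1 (95% interval 0.564 to 4.23) and 1.25 in library 2 (0.546 to 2.92), intervals that include equal levels.

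**Figure D3:**
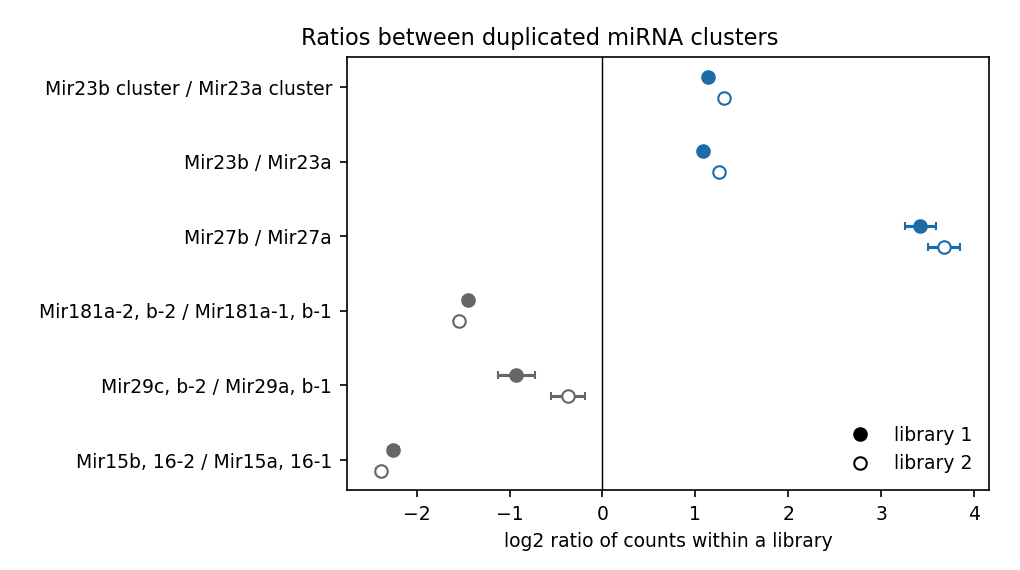
log2 ratio of counts between duplicated miRNA genes or clusters within library 1 (filled) and library 2 (open), with 95% exact counting intervals. The Mir23b to Mir23a ratios lie near 1.17, the Mir27b to Mir27a ratios near 3.55, and the other 3 duplicated clusters (grey) below 0 in the order in which their copies were written.

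All 5 members were higher in library 1 than in library 2, and Mir23a by more than Mir23b. Detected genes, those with at least 10 sense counts in each library, were compared with a two-sided exact binomial test on library sizes scaled by TMM (trimmed mean of M-values), with Benjamini-Hochberg adjustment over all 363 of them. Mir23b was 1.23-fold higher in library 1 (95% exact interval 1.21 to 1.24; adjusted p = 3.97e-228 by the exact binomial test) and Mir27b also 1.23-fold (1.17 to 1.29; adjusted p = 2.41e-17). Mir23a was 1.38-fold higher (1.36 to 1.41; adjusted p = 1.60e-256 by the exact binomial test) and Mir27a 1.47-fold (1.25 to 1.73; adjusted p = 9.35e-06). Mir24-2 was 1.32-fold higher (1.12 to 1.55; adjusted p = 0.00225 by the exact binomial test). The intervals of Mir23a and Mir23b did not overlap, whereas those of Mir27a and Mir27b did.

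These calls compare the libraries and cover counting error alone. Of all detected genes, 25.6% were called higher in library 1 and 24.2% higher in library 2, or 49.9% in either direction, so a call by itself says little about the members. Over the 5 members the log2 ratio (library 1 over library 2) had a median of 0.40, against -0.0036 over all detected genes. Single members exceeded between 77.7% and 87.6% of the detected genes in this ratio. By edgeR's exact test, which adds a spread between the pools of 34.3% estimated from these same libraries, 0 of the 5 members were called, each with an adjusted p of 1, and 0 had an unadjusted p under 0.05. That test called 8 genes, 2.2% of those detected. Its spread includes the difference between the libraries itself, and even Mir143, 4.44-fold higher in library 1, was not called (adjusted p = 0.150, edgeR's exact test). It can therefore not decide on differences as small as those of the members. Their calls hold for counting error and were lost with a spread of that size.

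**Figure D4:**
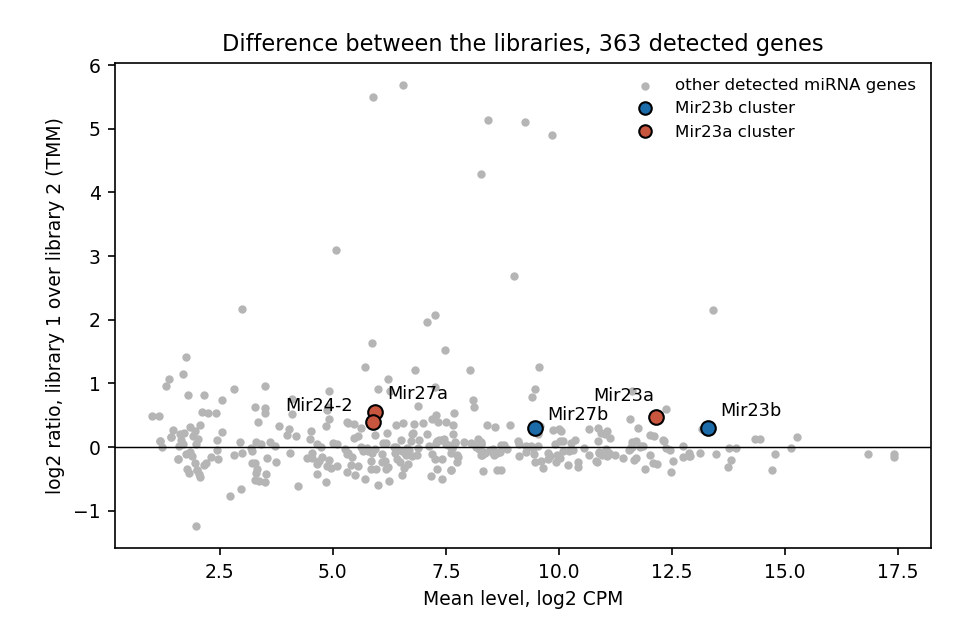
log2 ratio of library 1 to library 2 after TMM scaling against mean level (log2 CPM) for the 363 detected miRNA genes, with the Mir23b cluster in blue and the Mir23a cluster in red. The 5 members lie between 0.29 and 0.55, above the median of -0.0036 and well below the genes that differ most.

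Marker miRNAs of the tissue and of other cell types were read in the same libraries. List sizes below count only genes with a row, and the progenitor, leukocyte and striated muscle lists also named a gene without one. Reads that align to several places are missing from all the sums below, which therefore need not follow the levels of the guides. The neuron-enriched list (10 of 13 members detected, 0 without a count) summed to 11227 CPM in library 1, against 11869 CPM in library 2. Most of that sum was Mir137 (6615 CPM in library 1, against 7220 CPM in library 2). The progenitor list (2 of 3 detected) summed to 2071 CPM in library 1, against 2353 CPM in library 2. Endothelial Mir126a stood at 22011 CPM in library 1, against 19666 CPM in library 2, 1.09-fold higher in library 1. The epithelial list (7 of 7 detected) summed to 5458 CPM in library 1, against 631 CPM in library 2, the mesenchyme and smooth muscle list (6 of 7) to 22420 CPM in library 1 against 7594 CPM in library 2, and the leukocyte list (3 of 4, with Mir142b at 0 on the sense strand) to 433 CPM in library 1 against 237 CPM in library 2. Library 1 had 202 CPM of the erythroid list (3 of 3) against 183 CPM in library 2, 2095 CPM of the glial list (3 of 3) against 2328 CPM, and 287 CPM of the striated muscle list (2 of 5, with 2 at 0) against 363 CPM. By the exact binomial test all 7 epithelial markers were called higher in library 1, as were 5 of the 6 detected mesenchyme and smooth muscle markers, whose sum was mostly Mir143 (17950 CPM in library 1, against 3951 CPM in library 2). Mir140 of that list was called higher in library 2 (2985 CPM in library 1, against 3025 CPM in library 2; ratio 0.964). Of the 3 detected leukocyte markers 2 were called higher in library 1, and Mir150 was not called (71.4 CPM in library 1, against 66.6 CPM in library 2). Of the 10 detected neuron-enriched markers 3 were called higher in library 2 and 7 were not called. The progenitor, glial and striated muscle lists each had 1 marker called higher in library 2 and 0 in library 1. Of the erythroid markers 1 was called higher in library 1 and 2 were not called, and Mir126a was called higher in library 1. Over all detected genes 25.6% were called higher in library 1 and 24.2% higher in library 2. The part of these cell types in the members' difference was not tested.

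Of 12 other miRNA genes known from blood vessel growth, 8 were called higher in library 1, 2 higher in library 2 and 2 were not called by the binomial test, with a median log2 ratio of 0.23. Over all detected genes 25.6% were called higher in library 1 and 24.2% higher in library 2, and with edgeR's exact test none of the 12 was called (adjusted p = 1 for each, and an unadjusted p under 0.05 for 0 of them). The vessel miRNA gene Mir126a, which promotes endothelial responses to growth factors, was the most abundant of them and the only one besides Mir130a and Mir17 above Mir23a in both libraries. Mir17, of a cluster known to promote proliferation, had 10244 CPM in library 1, against 8262 CPM in library 2, a log2 ratio of 0.28. Mir18, Mir20a and Mir92-1 of the same cluster were also called higher in library 1, while Mir19a of it was not called. The 12 genes are therefore not independent of each other. Mir221, which restrains the Kit receptor, had 170 CPM in library 1, against 122 CPM in library 2, a log2 ratio of 0.45. Mir132, known from neurons as well as endothelium, went the other way with 724 CPM in library 1, against 893 CPM in library 2, a log2 ratio of -0.34. Mir130a was the other gene called higher in library 2, narrowly, at a ratio of 0.988 after TMM scaling (adjusted p = 0.0494, exact binomial test). Its CPM without that scaling was 14064 in library 1, against 13905 in library 2.

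The detected genes with levels nearest to each member were found by Euclidean distance in log2 CPM over the 2 libraries, a measure of level more than of pattern. For Mir23b they were Mir17, at a distance of 0.17, and Mir181c, at 0.36. For Mir23a they were Mir93 (0.21) and Mir182 (0.24), and for Mir27b Mir532 (0.13) and Mir425 (0.17). Mir27a and Mir24-2, which lie 56 bases apart, were each other's nearest gene at 0.12, followed for both by the liver miRNA gene Mir122.

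Beyond the members, no mature entry of the RefSeq table used here had the seed of miR-23a-3p or of miR-27a-3p. The seed of miR-24-3p was shared by 4 others, miR-6413, miR-6410, miR-6369 and miR-5124b, whose genes had 0 sense counts in both libraries, at most 0.709 CPM for library 1 or 0.497 CPM for library 2 by the limit given above. Among the genes with this seed, Mir24-2 was the only one with counts in a row of its own. Those counts cannot hold reads wholly within miR-24-3p, provided that the aligner saw both places, so they do not measure the molecule with this seed.

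Within 10 kb of a member, the tables held 1 further miRNA gene, Mir3074-1. GENCODE M21 places it opposite Mir24-1, whose whole hairpin it overlaps. It had 81.6 CPM in library 1 (345 sense counts), against 84.9 CPM in library 2 (513 sense counts), a mean of 83.3 ± 2.37 CPM (SD, n = 2). Unlike the members it was not called different between the libraries, with a log2 ratio of -0.09 (adjusted p = 0.512, exact binomial test). The version of its identifier in the tables is older than that in M21, and the strand it had when reads were counted is not given in the sources used here. Reads of Mir3074-1 and Mir24-1 can therefore not be told apart in this row.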

How the data were processed

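Small-RNA libraries from neural tube were analysed, 1 group of 2 biological replicates. The authors deposited 1 table a library with raw counts for each miRNA gene, unstranded and by strand, made on mm10 with GENCODE M4 per the README files; aligner, counter and trimming were not stated there. Rows that name no gene (unmapped, multimapping, outside genes, ambiguous) held 45.7% of reads in library 1, 47.7% in library 2, and were left out. The strand column with the larger total was used as sense. Of 1973 identifiers, 1894 matched GENCODE M21 without version and 1815 with it.

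Library sizes were scaled by TMM over genes with at least 10 counts in each library (edgeR 4.0.16, R 4.3.3), a gene set chosen after TMM over all genes had been run and seen, and genes compared by exact binomial test at an adjusted p of 0.05. Intervals are 95% and, like limits of 3 counts, cover counting error only, since reads without molecular identifiers are not independent molecules. Alternatives were no filter, library sizes without scaling, size factors from DESeq2 1.42.0, at least 50 counts, unstranded counts, edgeR's exact test, a pseudocount of 1 and leaving out either library, with TMM over all genes and matched members only added after seeing the data. Sequences and their positions came from RefSeq (GRCm38.p6). Python 3.11.15, pandas 2.3.3, numpy 2.4.6, scipy 1.17.1 and matplotlib 3.10.9 were used. The binomial test was tested on simulated counts with counting error alone, which cannot show how its calls hold under a spread between pools. Other genes named were those within 10 kb, with the same seed, the 2 nearest in level to each member, and the listed vessel, marker and duplicated-cluster genes. Members and lists were chosen with earlier results of these data known.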

Additional observations from a re-analysis of the deposited data

Results flagged for a closer look

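Mir3074-1, opposite Mir24-1 in M21, had 57 counts in library 1 and 56 counts in library 2 on the strand that was not used, above the limit of 3 counts set for a count of 0. It stood out because the 5 cluster members had at most 3 counts there.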

How the results depend on the processing

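The number of genes differing between the libraries was 181, lay between 171 and 188 under other scaling, filters and unstranded counts, and fell to 8 with edgeR's exact test, under which 14 genes had an unadjusted p under 0.05. With that test the members were no longer called, at unchanged log2 ratios of 0.29 for Mir23b, 0.47 for Mir23a, 0.30 for Mir27b, 0.55 for Mir27a and 0.40 for Mir24-2, each with an adjusted p of 1; it adds a spread between the pools to the counting error. All 5 kept direction and call under each of the other alternatives. TMM was first computed over all genes and called 186 genes, 85 higher in library 1 and 101 higher in library 2, against 93 and 88 with TMM over detected genes and 103 and 68 with library sizes alone. With TMM over all genes the log2 ratios were 0.26 for Mir23b, 0.44 for Mir23a, 0.27 for Mir27b, 0.52 for Mir27a and 0.37 for Mir24-2; detected genes were chosen after these values were seen, to follow an earlier treatment of these data. Leaving out either library gave log2 ratios of 1.08 to 1.25 for Mir23b to Mir23a, 3.42 to 3.68 for Mir27b to Mir27a and 1.14 to 1.31 for the clusters; unstranded counts and a pseudocount of 1 moved none by more than its SD. Matched members only, an alternative chosen after seeing the data, gave 1.25 for the clusters. With all reads as the library size, the CPM of all 5 members fell, to 5281 for Mir23b, because rows that name no gene enter the total. The Mir24-1 to Mir24-2 ratio was not run, since Mir24-1 was not analysed. No paired analysis between groups was possible because there is 1 group, while the ratios between members were taken within each library. Depth limits Mir27a and Mir24-2 most, with 288 to 310 counts a library.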

Other observations

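Of the table genes with a mature RefSeq sequence, 85 have a mature sequence that the hairpin of another gene also holds whole, as Mir24-2 does. Of these, 45 (52.9%) were detected, with a median level of 147 CPM, and of the 831 others 285 (34.3%) were detected, with a median of 141 CPM. Among the 45, levels ranged from 2.21 to 3235 CPM, against 2.01 to 174760 CPM among the 285. Mir24-2, at 59.3 CPM, lay below the median of the 45.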
